A study of Mus musculus with 3 samples.

Results

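The 5 C/EBP family genes Cebpa, Cebpb, Cebpd, Cebpe and Cebpg were examined in 2 chromatin immunoprecipitation sequencing (ChIP-seq) peak lists, 1 for ATF4 and 1 for CEBPG. They were chosen by name, with every peak that touched the RefSeq span of a member or the 100 kb on either side of it (mm10). By this rule the members held 1 of the 2642 ATF4 peaks and 12 of the 25419 CEBPG peaks, with a CEBPG peak that lay in the windows of both Cebpa and Cebpg counted once. The cells were wild-type C57BL/6 mouse embryonic fibroblasts, primary connective tissue cells taken from E13.5 embryos and passaged a few times. Every culture was grown for 24 hours in medium and then switched to amino acid deprived (AAD) medium for 3 hours, so no unstarved cells were compared. One library was made with the ATF4 antibody C-20, 1 with an antiserum to the C-terminus of CEBPG and 1 with a GFP antibody (not analysed here). There was no replicate, so the values below carry no error between cultures and no test between conditions was possible. The lists hold positions and scores only. The fibroblast label therefore could not be checked against expressed marker genes.

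C/EBP proteins are basic leucine zipper (bZIP) transcription factors that bind DNA as dimers, with one another or with other bZIP proteins. C/EBPα drives the differentiation of adipocytes, hepatocytes and myeloid cells, and C/EBPβ and C/EBPδ act early in adipocyte differentiation and in the inflammatory and acute-phase response. C/EBPε acts in the late maturation of granulocytes. CEBPG lacks a recognised activation domain and pairs with other C/EBP proteins and with ATF4, the main transcriptional effector of the response to amino acid shortage. Cebpb is an intronless gene from which several protein isoforms are translated, and in the human gene an element downstream of the coding sequence is known to respond to amino acid limitation.

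Among the 3 members with a start in the RefSeq promoter table used here (Cebpa, Cebpb and Cebpg), the peaks closest to a start lay inside Cebpb and Cebpg, downstream of it. The 250 bases before each of these 2 starts are printed here because no peak of either list touched them, so that the stretches without a peak can be set beside the positions of the peaks inside the genes. They are RefSeq sequences of GRCm38.p6 (the mm10 assembly), written 5′ to 3′ on the strand of the gene. The Cebpb stretch is chr2:167688665-167688914 on the plus strand and the Cebpg stretch is chr7:35056567-35056816 on the minus strand. Capitals mark TGACG, the half-site bound by ATF and CREB proteins, on either strand.
Cebpb: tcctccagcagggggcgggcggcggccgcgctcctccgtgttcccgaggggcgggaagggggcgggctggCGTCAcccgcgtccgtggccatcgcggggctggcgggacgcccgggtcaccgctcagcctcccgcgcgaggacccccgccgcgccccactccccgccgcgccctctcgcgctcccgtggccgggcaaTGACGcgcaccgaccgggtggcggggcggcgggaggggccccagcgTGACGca
Cebpg: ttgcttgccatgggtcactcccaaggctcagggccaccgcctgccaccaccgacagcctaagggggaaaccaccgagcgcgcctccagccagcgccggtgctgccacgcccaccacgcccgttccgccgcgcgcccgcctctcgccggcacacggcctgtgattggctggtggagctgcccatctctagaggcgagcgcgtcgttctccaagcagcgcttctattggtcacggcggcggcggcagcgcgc

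The Cebpb stretch held 3 TGACG half-sites, at positions -180 to -176 on the opposite strand and at -53 to -49 and -7 to -3 on the gene's strand. At least 1 such match occurred in 17.8% of the 32851 RefSeq promoter stretches of the same length, and 3 or more in 0.688%. The half-site was chosen after the sequences had been read. The Cebpg stretch held none, and neither did that of Cebpa, the third member with a promoter sequence in the table. A further 6 motifs were also searched on both strands. They were the composite C/EBP-ATF elements TGATGNAA and TGACGNAA (3.45% and 1.39% of all promoters), the C/EBP palindrome TTGCGCAA and its variant TTGCACAA (0.164% and 0.895%), the cyclic AMP response element TGACGTCA (1.55%) and the AP-1 site TGANTCA (6.75%). TGACG is part of TGACGNAA and TGACGTCA. None of the 6 matched in the stretches of Cebpa, Cebpb or Cebpg, which says only that these letters are not there. The Cebpb stretch ends in TGACGca, so a TGACGNAA match running past the start would not have been found. The GC content was 81.6% for Cebpb, 70.8% for Cebpg and 66.4% for Cebpa, against a median of 52.4% over all promoter stretches. A GC content as high as that of Cebpb was found in 0.746% of promoters. The TGACG shares were not taken among promoters of like GC content. The sequence under the peaks themselves was not analysed here.

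Cebpb was the single member with an ATF4 peak, and both factors had a strong peak inside its span of 1518 bp on chromosome 2. The ATF4 peak covered chr2:167689575-167689889, bases 661 to 975 counted from the transcription start as base 1. Its score, read from the authors' peak name, was 282.46, rank 18 of 2642 in the ATF4 list. The CEBPG peak covered chr2:167690007-167690416, bases 1093 to 1502, and so ended just short of the end of the gene. Its score was 845.58, rank 371 of 25419 in the CEBPG list. A score as high was reached by 0.681% of ATF4 peaks and by 1.46% of CEBPG peaks. Scores rank peaks within 1 list only and cannot be compared between the lists.

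**Figure D1:**
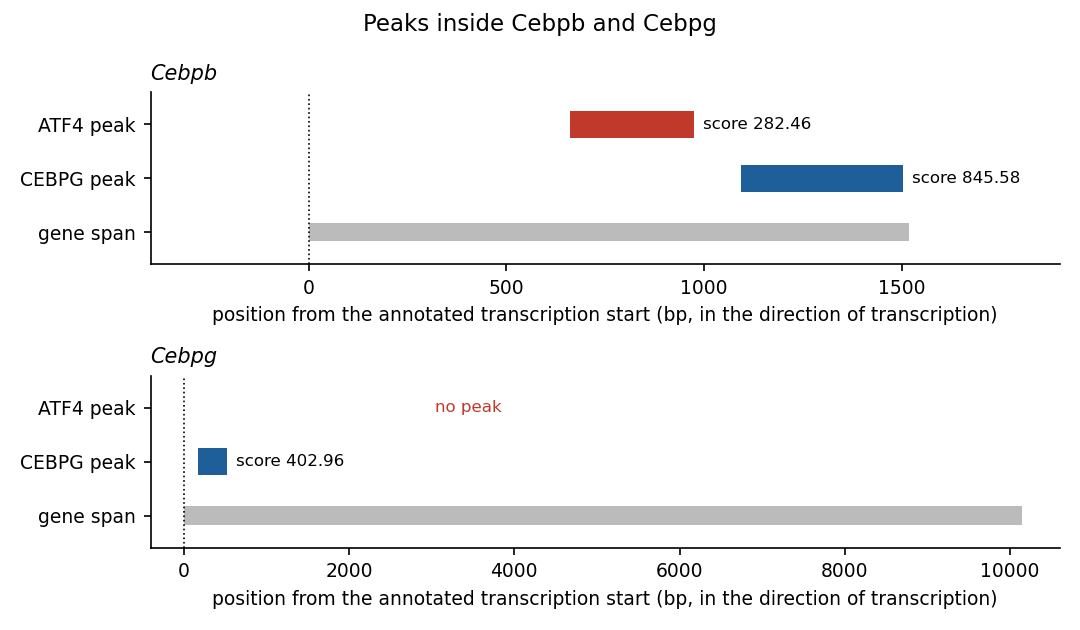
Peaks inside Cebpb (top) and Cebpg (bottom), drawn to scale by their distance in bp from the annotated transcription start (dotted line). Bars are the ATF4 peak (red), the CEBPG peak (blue) and the gene span (grey). The ATF4 and CEBPG peaks of Cebpb are separated by 117 bp, and Cebpg has a CEBPG peak of score 402.96 close behind its start and no ATF4 peak.

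The 2 peaks of Cebpb did not overlap. They were separated by 117 bp, and their centres lay 479 bp apart. Over the whole lists, 400 of 2642 ATF4 peaks (15.1%) overlapped a CEBPG peak, and 401 of 25419 CEBPG peaks (1.58%) overlapped an ATF4 peak. Overlap was common at scores as high as those at Cebpb. Of the 18 ATF4 peaks with a score of 282.46 or more, 13 overlapped a CEBPG peak. Of the 371 CEBPG peaks with a score of 845.58 or more, 207 (55.8%) overlapped an ATF4 peak, and among the rest the peak at Cebpb was the 1 that lay within 500 bp of an ATF4 peak.

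The other 4 ATF4 peaks at or above the Cebpb score without overlap lay far from any CEBPG peak, at distances between 45.8 and 150 kb. Their widths varied, at 3194, 2589, 879 and 351 bp (median 1734 bp), and the peak at Cebpb was 315 bp wide. The peak of 351 bp was close to that of Cebpb in score as well (282.97), and lay 92.1 kb from the nearest CEBPG peak. In all, 42 ATF4 peaks lay within 500 bp of a CEBPG peak without touching it. The ATF4 peak of Cebpb had the highest score among these 42, and the next were 76.79 and 75.51. The other 41 had a median score of 44.85, close to the median of 45.88 for the whole ATF4 list. The limit of 500 bp was set after the values had been seen. Both peaks of Cebpb were narrower than the median of a class of peaks of like score, and the spread of widths within these classes was not examined. The 11 ATF4 peaks with scores from 250 to 300 that overlapped a CEBPG peak had a median width of 482 bp. The 45 CEBPG peaks with scores from 800 to 900 had a median width of 565 bp, and the peak at Cebpb was 410 bp wide.

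**Figure D2:**
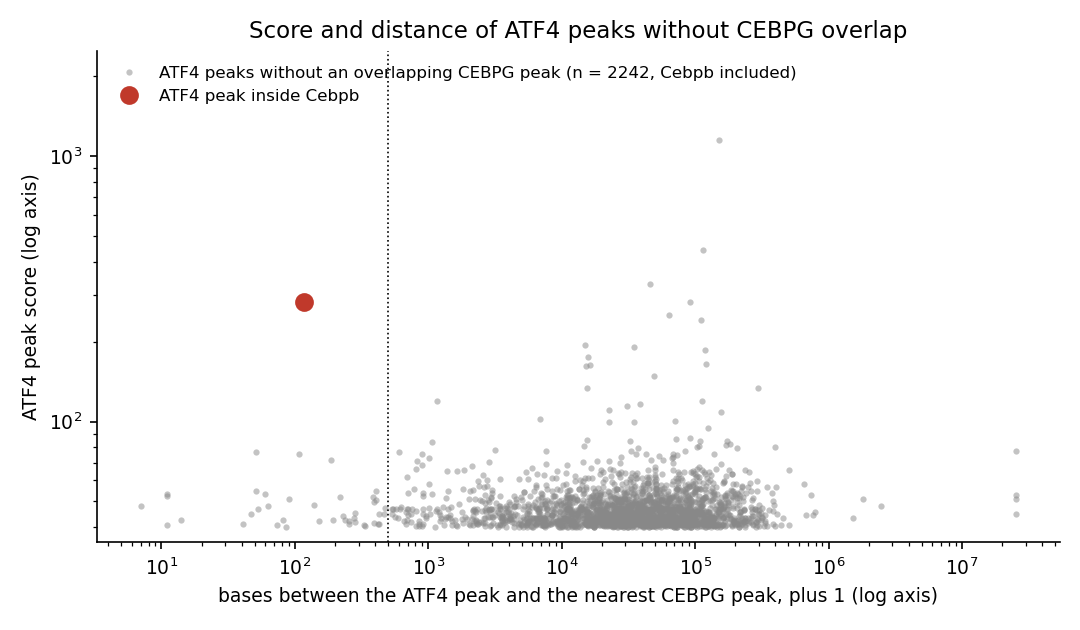
Score of each ATF4 peak that overlapped no CEBPG peak (vertical log axis) against the number of bases to the nearest CEBPG peak (horizontal log axis, plus 1). Grey points are the 2242 peaks, the red point is the peak inside Cebpb, and the dotted line marks 500 bp. The Cebpb peak, at 117 bp and a score of 282.46, stands above all others left of the line, of which the next has 76.79.

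Genes with a peak of both lists were then counted, wherever within 5 kb of the span the peaks lay. Within 5 kb of the span, 750 of 21887 protein-coding genes (3.43%) had a peak of both lists, and 503 of them had no ATF4 peak that overlapped a CEBPG peak. Cebpb had the highest ATF4 score of these 503 genes, and the next was 94.62, at Crebbp, which encodes the transcriptional coactivator CBP. Crebbp was named after its values had been seen. Of the 76 genes with an ATF4 score of 100 or more and a CEBPG score of 500 or more, Cebpb was the only one without an overlapping pair. Of the 2583 genes with a span of up to 2 kb, 8 had an ATF4 peak touching the span. Among the 434 genes with both peaks wholly inside the span and no overlapping pair, Cebpb was the 1 gene of up to 2 kb. The span limit of 2 kb and the CEBPG limit of 500 were not planned in advance. An ATF4 score of at least 282.46 within 5 kb was found at 11 genes (0.0503%), Cebpb included, and a CEBPG score of at least 845.58 at 226 genes (1.03%). In all these counts neighbouring genes can share a peak.

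The genes most like Cebpb in both scores were Abca4, Acot2 and Heatr4. Likeness was the distance between the log10 top ATF4 and log10 top CEBPG scores within 5 kb, over the 2 libraries. Abca4, encoding a retinal lipid transporter, had 237.73 for ATF4 and 669.88 for CEBPG (distance 0.126). Acot2, encoding a mitochondrial acyl-CoA thioesterase, had 276.88 for ATF4 and 1182.01 for CEBPG (distance 0.146). Heatr4 had the same values as Acot2 through the same ATF4 peak, so these genes are not separate cases. At each of these genes an ATF4 and a CEBPG peak overlapped, unlike at Cebpb.

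**Figure D3:**
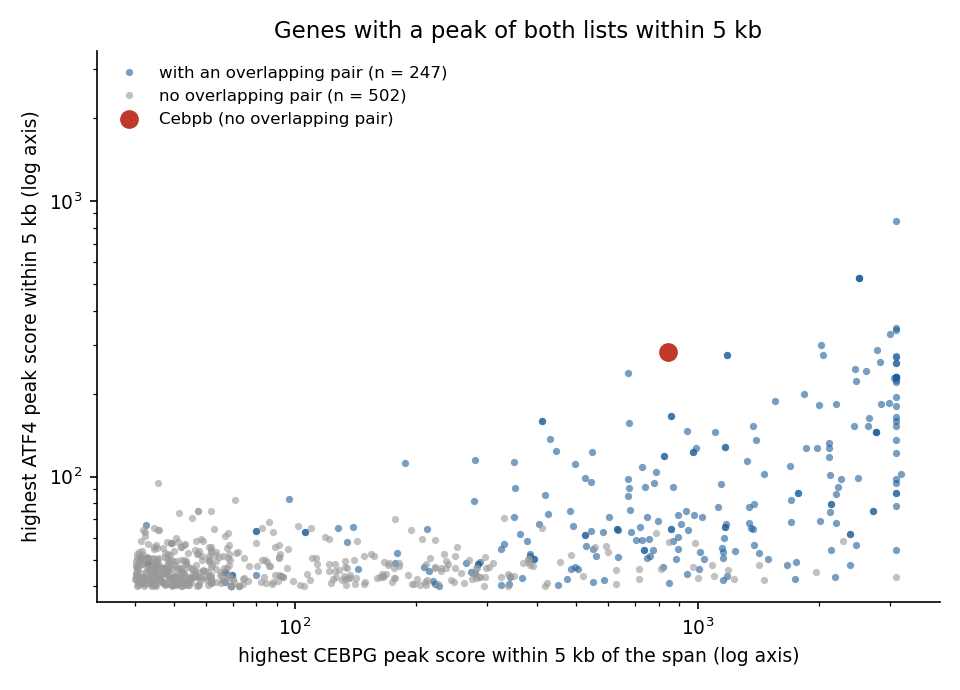
Highest ATF4 score (vertical log axis) against highest CEBPG score (horizontal log axis) within 5 kb of the span, for the 750 genes with a peak of both lists. Blue points are the 247 genes with an overlapping pair, grey points the 502 genes without one, and the red point is Cebpb. Cebpb (282.46 and 845.58) lies among the blue points, above every grey point.

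The Cebpb window held 4 further CEBPG peaks, all with scores under 60, where the median of the whole CEBPG list was 47.24. The nearest, with a score of 45.77, lay 7.65 kb beyond the higher-coordinate end, and a peak of 41.99 lay 69.6 kb beyond it. On the other side, a peak of 52.08 lay 23.1 kb away between genes, and a peak of 56.26 lay 38.4 kb away inside Tmem189. None of these 4 overlapped an ATF4 peak. With 5 CEBPG peaks in all, Cebpb had more than any other member. At least 5 within 100 kb were found at 12.6% of protein-coding genes, and the median was 2. The nearest other ATF4 peak was 782 kb away on the lower-coordinate side, with a score of 53.37, and the next on the higher side was 1770 kb away, with 41.67.

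Cebpg, whose product was the target of the antiserum, had a CEBPG peak just behind its own start and no ATF4 peak in its window. The peak covered chr7:35056042-35056394, bases 173 to 525 from the transcription start as base 1, inside a gene of 10145 bp on the minus strand. Its score was 402.96, rank 832 of 25419, a level reached by 3.27% of CEBPG peaks and, within 5 kb, at 2.22% of protein-coding genes. The predicted gene Gm45095, on the opposite strand, spans the same bases, so the peak could not be given to Cebpg alone. The nearest ATF4 peak was 569 kb away, with a score of 46.64, inside Ankrd27. The other CEBPG peak of the window had a score of 146.46. It lay 78.5 kb beyond the lower-coordinate end of Cebpg, inside Pepd, the gene of the dipeptidase prolidase, and was the farthest peak still inside a window.

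Other genes also had peaks behind the start, at a small share of all genes. Of 17492 protein-coding genes with a start in that promoter table, 51 (0.292%) had an ATF4 peak centred in the 1000 bases after the start. In the last 1000 bases before the start, 42 genes (0.24%) had one. For CEBPG the counts were 311 genes (1.78%) after the start and 425 (2.43%) before it. The ATF4 peak of Cebpb and the CEBPG peak of Cebpg fell in the first 1000 bases. The CEBPG peak of Cebpb fell in the next 1000 bases, where 290 genes (1.66%) had one.

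Cebpa had no peak of its own in either list. It lies 62.7 kb from Cebpg on chromosome 7, and the 1 CEBPG peak of its window was the peak behind the start of Cebpg, 62.9 kb away. A CEBPG peak as near or nearer was found for 68.4% of protein-coding genes, and the median distance was 28.4 kb. On the other side of Cebpa the next CEBPG peak was 583 kb away, with a score of 47.12. The nearest ATF4 peak was 504 kb away, against a median of 371 kb over all genes.

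At Cebpd, 3 CEBPG peaks lay to the higher-coordinate side and none to the other, and all 3 were inside Spidr, a neighbouring gene for a DNA repair scaffold. Their distances from Cebpd were 37.5, 46.4 and 68.8 kb, with scores of 72.32, 48.42 and 53.77 in that order. A CEBPG peak as near was found for 55.9% of genes. The nearest ATF4 peak was 592 kb away. That ATF4 peak was strong (score 271.14, rank 24), but it lay 256 kb from the nearest protein-coding gene, Ube2v2, and outside any window.

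At Cebpe, the granulocyte member, 2 CEBPG peaks with scores under 60 lay to the lower-coordinate side inside other genes. The nearer, with a score of 58.31, lay 22.3 kb away in 1700123O20Rik, and the other, with 43.18, lay 70.3 kb away in Cdh24, a cadherin gene. A CEBPG peak as near was found for 45.5% of genes. The nearest ATF4 peak, 828 kb away, was the one inside Pck2 (score 259.71, rank 25), the gene of mitochondrial phosphoenolpyruvate carboxykinase.

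**Figure D4:**
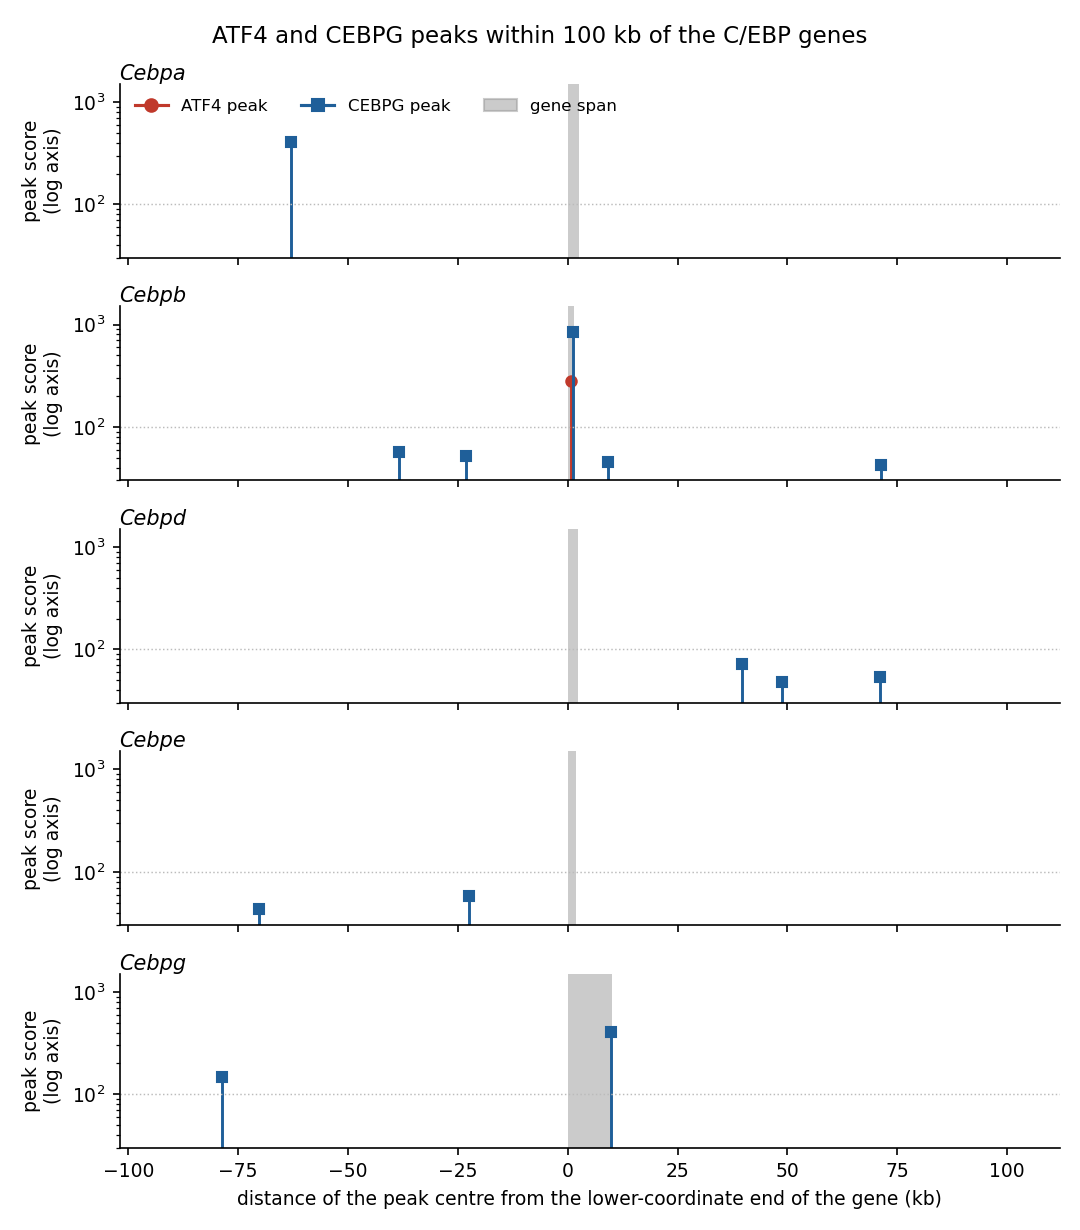
ATF4 peaks (red circles) and CEBPG peaks (blue squares) within 100 kb of each C/EBP gene, by the distance of the peak centre from the lower-coordinate end of the gene in kb (horizontal axis) and the authors' score (vertical log axis, each list on its own scale). Grey bands are gene spans and dotted lines mark a score of 100. Strong peaks sit inside Cebpb (282.46 for ATF4, 845.58 for CEBPG) and Cebpg (402.96 for CEBPG), and the peak left of Cebpa is that of Cebpg.

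Over all 5 windows, most CEBPG peaks had low scores, as did most peaks of the whole CEBPG list. Of the 12, 8 had scores under 60, 1 had 72.32 and 3 reached 100 or more, between a lowest score of 41.99 and a highest of 845.58. Their median score was 55.02, against 47.24 for the whole CEBPG list. Scores of 100 or more made up 25% of the 12 and 11.7% of the list. A member span was touched by 2 of the 12 peaks, another protein-coding gene alone by 7, and 3 lay outside every protein-coding span. The 9 peaks that touched a span made up 75% of the 12, against 42.5% of the whole CEBPG list. The windows were set around genes, so a higher share than in the whole list is partly built into the rule. None of the 12 overlapped an ATF4 peak, and the share in the whole list was 1.58%. The windows held only 1 ATF4 peak, inside Cebpb, so CEBPG peaks of the other windows had none to overlap. The count of 12 therefore cannot be set against that share. The nearest CEBPG peak left out of every window was 126 kb from Cebpb, with a score of 51.11.

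A count of members near a peak has to be read against all genes. Within 100 kb, 1 of 5 members had an ATF4 peak (19.3% of 21887 protein-coding genes) and 5 of 5 had a CEBPG peak (79.3%). Both counts are near the shares over all genes. Within 50 kb, 1 of 5 had an ATF4 peak (12% of genes) and 4 of 5 a CEBPG peak (62.5%). Within 20 kb, 1 of 5 had an ATF4 peak (7.44% of genes) and 2 of 5 a CEBPG peak (43.7%). Within 5 kb the counts were again 1 of 5 for ATF4 (4.94% of genes), Cebpb, and 2 of 5 for CEBPG (29.9%), Cebpb and Cebpg. These members also had their peaks within 1 kb, where 4.18% of genes had an ATF4 peak and 25.2% a CEBPG peak. The members are short, and longer genes meet more peaks. Among the 8000 genes no longer than Cebpg, a comparison added after seeing the data, 1.76% had an ATF4 peak and 11.9% a CEBPG peak within 5 kb. At scores of 100 or more within 5 kb, the same 1 and 2 members remained, against 0.42% and 7.24% of all genes.

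**Figure D5:**
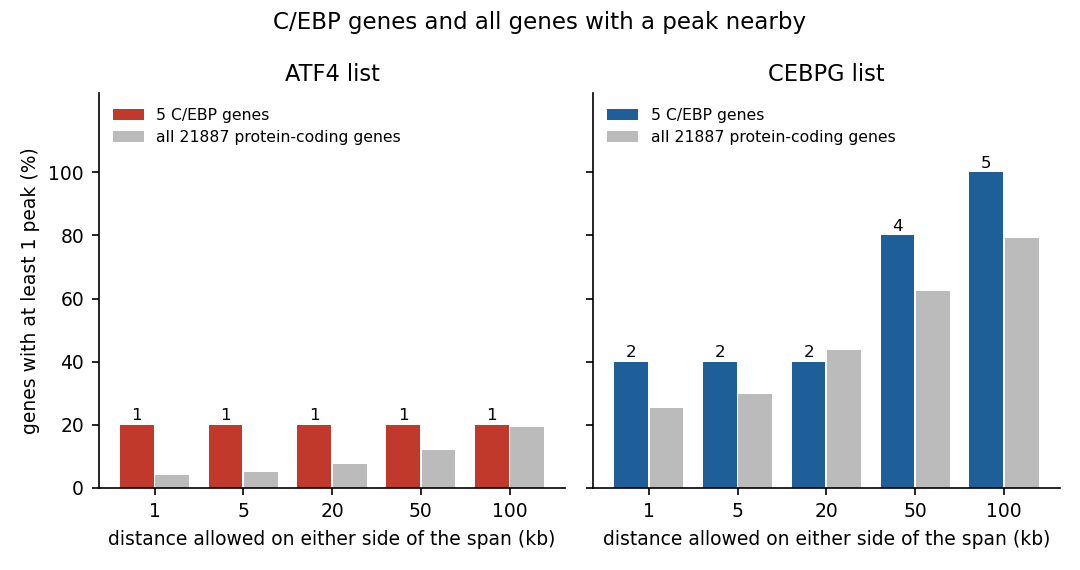
Share of genes with at least 1 peak within 1, 5, 20, 50 or 100 kb of the span, for the 5 C/EBP genes (coloured bars, with their number on top) and all 21887 protein-coding genes (grey bars), in the ATF4 list (left) and the CEBPG list (right). The ATF4 bar of the C/EBP genes is Cebpb alone at every distance, and at 100 kb it stands beside 19.3% of all genes.

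Genes whose products work with the C/EBP proteins were counted in the same way, within 5 kb of the span. Genes of bZIP dimer partners had an ATF4 peak at 1 of 9 and a CEBPG peak at 6 of 9 (4.94% and 29.9% of all genes). The ATF4 peak was at Atf5 (145.38), which also had the highest CEBPG score of the list (2765.18, overlapping). Atf3 (725.28) and Ddit3, encoding the dominant-negative C/EBP homologue CHOP (351.41), followed for CEBPG. The remaining partner genes with a CEBPG peak had scores of 44.61, 42.23 and 40.85, near the minimum of 40 in the CEBPG list. Genes for regulators of C/EBP proteins had an ATF4 peak at 1 of 8 and a CEBPG peak at 7 of 8 (again beside 4.94% and 29.9% of all genes). Neither list was matched to all genes for length. Trib3, a pseudokinase of a family that promotes C/EBP degradation, had both (46.24 for ATF4, 1007.02 for CEBPG, overlapping). Gsk3b, a kinase that phosphorylates C/EBP proteins, had a CEBPG peak of 286.93. Cop1, a ubiquitin ligase that acts with Tribbles proteins, and Fbxw7, another ligase component, each had a highest CEBPG score of 92.02, at separate peaks. The remaining regulator genes with a CEBPG peak had highest scores of 76.07, 62.04 and 42.63.

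Adipogenic genes, and genes known as C/EBP targets in inflammation and granulocytes, were counted last. The adipogenic list was not limited to C/EBP targets. Over all protein-coding genes the shares are 4.94% for ATF4 and 29.9% for CEBPG, and 1.76% and 11.9% over the genes no longer than Cebpg. Adipogenic genes had an ATF4 peak at 1 of 14 and a CEBPG peak at 7 of 14. The ATF4 peak was at Cd36, a fatty acid transporter gene (53.85), with its highest CEBPG peak (50.18) not overlapping. The highest CEBPG scores in this list were 204.07 at Ebf1, an adipocyte and B cell transcription factor gene, 62.36 at Lpl, lipoprotein lipase, and 50.18 at Cd36. Acute-phase and inflammatory genes had an ATF4 peak at 0 of 10 and a CEBPG peak at 3 of 10, namely Ptgs2, cyclooxygenase-2 (359.99), Il6 (77.33) and Ccl2 (58.62). Granulocyte genes, the field of C/EBPε, had an ATF4 peak at 0 of 9 and a CEBPG peak at 0 of 9, beside the shares of all genes and of short genes given above. With 1 library an antibody, these are counts and not tests.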

How the data were processed

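ChIP-seq of mouse embryonic fibroblasts was deposited as 1 peak list for the ATF4 library and 1 for the CEBPG library. Reads were single-end and 36 bp long, per the labels' protocols. MACS 1.4.2, BWA, Trimmomatic, HOMER and mm10 are listed without settings, per the submitters' processing notes. The control behind the peak calls is not stated in what was used here. Each deposited score, the authors' value, closes the peak's name and starts at 40 in both lists. The scores look like those of MACS, though no header says so. Depth is unknown.

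Gene spans (21887 nuclear protein-coding genes), starts and sequences came from RefSeq GRCm38.p6, the build of the peaks. Overlap meant at least 1 bp, and positions are 1-based. Distances run to the nearest end of a span. Python 3.11.15, pandas 2.3.3 and scipy 1.17.1 were used, and the code was checked on simulated data. The members, lists and motifs were chosen with earlier results of these data known. Named genes were the members, genes nearest peaks that were shared or scored 100 or more, the 3 highest scores of each list, and the 3 genes most like Cebpb. Genes that hold or lie nearest to the remaining peaks of the windows and the nearest ATF4 peaks (Tmem189, Spidr, Cdh24, 1700123O20Rik, Ankrd27, Ube2v2 and Pck2) and Crebbp were named after their values were seen. Promoter sequences matched 3 of the 5 members, Cebpa, Cebpb and Cebpg. Alternatives changed the window, the score minimum, the width limit and the overlap rule. The planned motif search under the peaks and the protein comparison were not run, since no genome or protein sequence was used here. With 1 library per antibody, no test was run.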

Additional observations from a re-analysis of the deposited data

How the results depend on the processing

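Of 32 alternatives to the counts of peaks, pairs and members, 27 left the count within 1.5 times its value. Many of the 32 could not change it. The ATF4 peak and 2 CEBPG peaks lie inside member spans with scores well above 100, and stricter rules cannot lower a count of 0 pairs. The 27 is therefore no measure of how firm the counts are. The count of CEBPG peaks in the windows, 12, was 3 both within 20 kb and at scores of 100 or more. Members with a CEBPG peak numbered 5 within 100 kb, 2 within 20 kb and 3 at scores of 100 or more, the third being Cebpa through the peak inside Cebpg. Overlapping pairs numbered 0 under every planned rule, including centres within 250 bp, and 1, at Cebpb, where a gap of up to 200 bp was allowed, a rule added after seeing the data. Smaller windows and higher score minimums leave fewer peaks by construction. The ATF4 count stayed at 1 peak, inside Cebpb, throughout. Limiting the comparison to genes no longer than Cebpg, also added after seeing the data, lowered the share of genes with a CEBPG peak within 100 kb to 72% from 79.3%, and with an ATF4 peak to 16.4% from 19.3%. No paired analysis was possible because there was 1 library per antibody, and no library could be left out for the same reason. Depth is unknown, so a peak absent from a list may lie below its score minimum of 40.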

Other observations

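The span of Cebpa lay in a stretch of 649 kb without a CEBPG peak, between the peak behind the start of Cebpg and the next peak on the higher-coordinate side. Stretches at least as long were 235 of 25397 (0.925%) between neighbouring CEBPG peaks, whose median was 58.7 kb. Cebpe lay in a stretch of 471 kb (2.1% as long) and Cebpd in one of 221 kb (11.2% as long). A gene falls more often in a long stretch than in a short one.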
